A study of Mus musculus with 10 samples.

Results

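The suppressors of cytokine signaling (SOCS) were examined in retinal cells collected after optic nerve crush (ONC), in mice with or without deletion of *Arid1a*, which encodes a DNA-binding part of a SWI/SNF chromatin remodeler. The family was taken as 8 genes, *Socs1* to *Socs7* and *Cish*, found by symbol among the 53974 genes of the RNA-seq table. All 8 were found. Of the 16600 ATAC-seq regions compared between the groups, the 6 within 1000 bp of an end of these genes were taken as theirs. Every mouse carried floxed *Arid1a* alleles on the C57BL/6 strain at an age of 8 to 10 weeks, and every retina had received AAV2 in the vitreous 2 weeks before ONC and was collected 3 days after it. The WT group (label Arid1a fl/fl) received AAV2-GFP and the cKO group (label Arid1a del/del) received AAV2-Cre, both driven by the CMV promoter, which is not restricted to a cell type. The paper gives a lower titer for AAV2-Cre than for AAV2-GFP, so titer and group cannot be told apart here. Cells were sorted with an antibody to Thy1.2, retinas were pooled for each sample, and there were 3 WT and 3 cKO libraries for RNA-seq and 2 and 2 for ATAC-seq. Thy1.2 is carried by retinal ganglion cells (RGCs), the output neurons of the retina, and also by T cells.

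SOCS proteins close a feedback loop on cytokine signaling. A cytokine binds its receptor, the receptor's JAK kinases phosphorylate STAT transcription factors, and the STATs switch on genes that include *Socs1*, *Socs3* and *Cish*. Each SOCS protein binds phosphorylated tyrosines through an SH2 domain and, through its SOCS box, recruits Elongins B and C with Cullin 5 to mark partners for degradation. SOCS1 and SOCS3 also block the JAK kinases directly. In RGCs, SOCS3 is best known as a brake on the response to CNTF and other cytokines that act through the gp130 receptor.

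The DNA just before the start of *Socs1* and *Socs3* is shown because both genes had an ATAC-seq region there, and both had lower RNA in every cKO library. RefSeq starts were listed for 4 of the 8 genes (*Socs1*, *Socs3*, *Socs4* and *Cish*), and a window of 300 bases around each (250 before and 50 after) was searched on both strands for 3 motifs. These were TTCNNNGAA, the core of a STAT binding element, a pair of GAAA with 2 bases between them, as in interferon response elements, and GGGCGG, the GC box bound by SP1 and related factors. Capitals mark the matches on either strand. Both stretches are on GRCm38.p6, read on the minus strand, from 5′ to 3′, and end at the base before the start.
*Socs1*, chr16:10785537-10785786: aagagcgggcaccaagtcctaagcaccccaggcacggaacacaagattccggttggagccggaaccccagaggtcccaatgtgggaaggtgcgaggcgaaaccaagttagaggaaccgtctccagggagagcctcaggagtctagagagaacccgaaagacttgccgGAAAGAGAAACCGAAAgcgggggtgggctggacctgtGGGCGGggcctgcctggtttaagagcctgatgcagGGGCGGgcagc
*Socs3*, chr11:117969367-117969616: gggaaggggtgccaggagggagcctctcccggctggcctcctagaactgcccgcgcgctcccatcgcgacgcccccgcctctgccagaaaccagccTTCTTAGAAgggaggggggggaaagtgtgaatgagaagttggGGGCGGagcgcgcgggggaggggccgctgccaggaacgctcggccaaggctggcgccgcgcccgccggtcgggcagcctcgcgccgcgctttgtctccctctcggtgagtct
*Socs1* held 2 overlapping interferon elements and 2 GC boxes. *Socs3* held 1 STAT element, at positions -154 to -146 with the start base counted as 0, and a GC box before the start. Its window held a second GC box past the start.

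*Cish*, on the plus strand, held 2 STAT elements side by side at its RefSeq start, and the short stretch that carries them is shown for that reason, with the elements in capitals.
*Cish*, chr9:107296657-107296680: ttTTCCTGGAAagTTCTTGGAAat
A window with 2 or more such elements was uncommon. Of 21263 windows at starts of protein-coding genes, 0.404% held 2 or more STAT elements and 7.69% held at least 1. The interferon element was found at least once in 3.35% and 2 or more times in 0.259%, and the GC box at least once in 46.2% and 2 or more times in 26.4%. *Socs4* held 1 GC box and neither of the other elements. These matches describe letters in a window, and binding was not measured.

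*Socs3* had the most RNA of the family, with levels given as TPM, a share of all transcripts that corrects for transcript length. The WT libraries held 144, 154 and 258 TPM in replicates 1, 2 and 3, and the cKO libraries held 87.4, 63.9 and 130 TPM. Every cKO library lay below every WT library. The means were 185 ± 63.2 TPM (SD, n = 3) for WT and 93.7 ± 33.4 TPM (SD, n = 3) for cKO. On the scale of log2(TPM + 1), the difference was -0.98 (standard error 0.34), with an adjusted p of 0.206 from limma over all 17555 genes tested. By the exact two-sided permutation test over the 6 libraries p was 0.1, the smallest value that 3 libraries against 3 allow. *Socs3* was first in the family in all 6 libraries and made up between 54.6% and 76.9% of the family's summed TPM in WT and between 37.5% and 65.4% in cKO.

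*Socs1* had the largest difference of the family. SOCS1 restrains signaling by interferons and by cytokines of T cells. Its RNA stood at 11.3, 12.7 and 11.7 TPM in the WT libraries and at 3.49, 1.61 and 3.39 TPM in the cKO libraries. The groups did not overlap, and the WT libraries lay close together, with a mean of 11.9 ± 0.729 TPM (SD, n = 3) against 2.83 ± 1.05 TPM (SD, n = 3) in cKO. The log2 difference was -1.79 (standard error 0.31, adjusted p = 0.124 from limma). The exact two-sided permutation p was again 0.1. *Socs1* was last of the 8 genes in every cKO library, and ranked 4 or 5 in the WT libraries.

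Neither difference passed an adjusted p under 0.05. At that threshold limma called 0 of the 8 SOCS genes. *Socs1* and *Socs3* (2 of 8) were lower at an unadjusted p under 0.05, and 0 were higher. *Socs3* was not below that unadjusted threshold without WT replicate 3, cKO replicate 1 or cKO replicate 2, which left 1 gene. Over all genes tested, 0.0057% were higher and 0.0% lower at the adjusted threshold, and 6.45% were lower and 11.9% higher at the unadjusted one. With the replicate number as a block in the fit, the adjusted p was 0.0762 for *Socs1* and 0.0935 for *Socs3*, and at the unadjusted threshold the same 2 genes were lower (8.52% of all genes) and 1, *Socs2*, was higher (13.4%). Every cKO library lay below every WT library in 2 of the 8 genes, where 7.18% of all genes tested did so, and above in 1 gene, where 18.7% did. The median log2 difference over the 8 was -0.15, and over all genes tested it was 0.16. That background shifts with the scaling: after each library was scaled by the median of ratios, the median of all genes was 0.01, *Socs1* stood at -1.93 and *Socs3* at -1.15. At the unadjusted threshold 3 SOCS genes (those and *Socs6*) were then lower, where 9.54% of all genes were, and 0 higher, where 7.57% were.

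*Cish*, an inhibitor of STAT5 signaling by interleukin-2 and related cytokines, split the WT libraries. It stood at 17.5, 5.03 and 18.5 TPM in WT replicates 1, 2 and 3 and at 8.65, 6.08 and 6.95 TPM in the cKO libraries. WT replicate 2 was the lowest of all 6 libraries, and the other two WT libraries were the highest. The log2 difference was -0.67 (standard error 0.49, adjusted p = 0.501 from limma). Without WT replicate 2 it was -1.22. Without WT replicate 1 it was -0.41, and without WT replicate 3 it was -0.37.

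*Socs2*, known as the restraint on growth hormone signaling, had 22.7, 17.9 and 11.5 TPM in the WT libraries and 28.4, 30.1 and 19.2 TPM in the cKO libraries. The cKO libraries tended to the higher values, but cKO replicate 3 lay below WT replicate 1. The log2 difference was 0.58 (standard error 0.33). Its adjusted p was 0.385 by limma. The difference came to 0.41 after scaling by the median of ratios. Within each replicate number, the cKO library had more *Socs2* than the WT library, although the labels do not pair libraries by number. The share of all genes that did so was not computed, and 61.1% of all genes tested had a positive log2 difference. *Socs7*, which binds adaptor proteins of growth factor signaling, had 6.77, 8.64 and 8.01 TPM in WT and 9.05, 10.2 and 10.4 TPM in cKO. Its groups did not overlap, yet the log2 difference was small at 0.31 (standard error 0.25, adjusted p = 0.541 from limma), and scaling by the median of ratios brought it to 0.16.

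*Socs4* and *Socs5*, which resemble each other and have been tied to the EGF receptor, varied more between replicates than between groups. *Socs5* ran from 11.4 to 55.3 TPM in WT and from 15.4 to 38.3 TPM in cKO. Replicate 3 was the lowest library of its group for both genes, in WT and in cKO. *Socs4* stood at 7.09, 9.82 and 3.98 TPM in WT and at 7.84, 10.7 and 4.50 TPM in cKO, the same order of replicates in both groups, and within each replicate number the cKO library had more, as for *Socs2*. Their log2 differences were 0.25 for *Socs5* (standard error 0.61) and 0.13 for *Socs4* (standard error 0.42). Both signs turned when WT replicate 3 was left out, and that of *Socs4* also turned after scaling by the median of ratios and without cKO replicate 2. *Socs6*, a regulator of insulin and KIT receptor signaling, had 10.7, 18.2 and 12.2 TPM in WT and 10.7, 9.82 and 8.77 TPM in cKO, with a log2 difference of -0.42 (standard error 0.28, adjusted p = 0.464 from limma). WT replicate 1 and cKO replicate 1 stood at the same level, so the groups met there. Without WT replicate 2 the difference was -0.21.

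**Figure D1:**
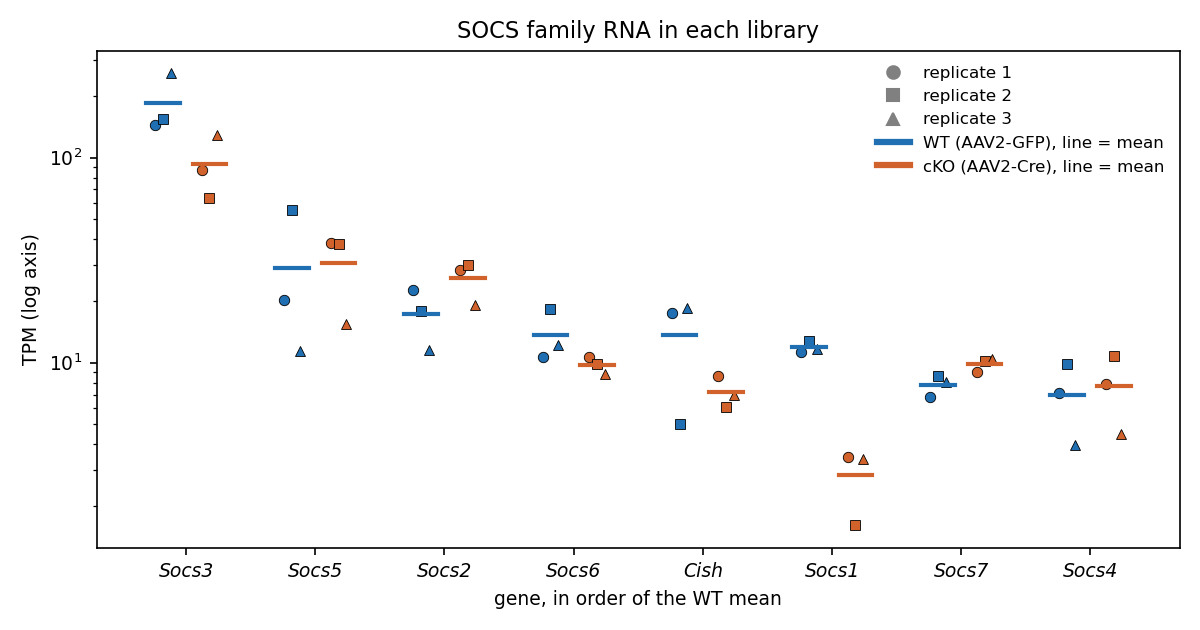
RNA of the 8 SOCS genes in each of the 6 RNA-seq libraries, in TPM on a log axis, with genes in order of the WT mean; marker shape gives the replicate number and the horizontal line the mean of 3 libraries. *Socs1* and *Socs3* are lower in all cKO libraries, from 1.61 to 3.49 TPM and from 63.9 to 130 TPM, and *Cish* of WT replicate 2 sits at 5.03 TPM, away from the other two WT libraries.

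The order of the genes within each group set *Socs3* apart from the rest. In WT the means ran *Socs3*, *Socs5*, *Socs2*, *Socs6*, *Cish*, *Socs1*, *Socs7*, *Socs4*. The ranges over the 3 libraries were apart between *Socs3* and *Socs5* and between *Socs1* and *Socs7*, and overlapped for the other neighbours. In cKO the order was *Socs3*, *Socs5*, *Socs2*, *Socs7*, *Socs6*, *Socs4*, *Cish*, *Socs1*. There the neighbours with ranges apart were *Socs3* and *Socs5*, *Socs2* and *Socs7*, and *Cish* and *Socs1*. Summed over the family, the WT libraries held 240, 281 and 335 TPM, and the cKO libraries held 194, 170 and 198 TPM.

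For each SOCS gene, the genes with the most similar pattern over the 6 libraries were found among 12671 other genes with a mean TPM of at least 5. Likeness was the root mean square difference of log2(TPM + 1), each gene centred on its own mean. The nearest to *Socs3* were *Stat6* (0.128), *Nfkbiz* (0.134) and *Tmem176a* (0.135). *Stat6* had 36.0, 36.1 and 63.4 TPM in WT and 22.7, 13.9 and 38.6 TPM in cKO, highest in replicate 3 of each group, as *Socs3* was. The nearest to *Socs1* were *Phf11d* (0.171) and *Ptafr* (0.204). The nearest to *Cish* were *Ipcef1* (0.122) and *Dgka* (0.160). *Ipcef1* had 12.4, 2.92 and 12.5 TPM in WT and between 3.95 and 5.54 TPM in cKO, with WT replicate 2 the lowest here too. All these genes were chosen for their likeness over the same 6 libraries, so a shared order of libraries follows from that choice. The nearest to *Socs5* was *Plod2* (0.0987), and to *Socs4*, *Fem1b* (0.0748).

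The libraries also differed in the RNA of other cell types, and the levels of the SOCS genes are set beside them here. RGC markers had low levels, with 13 genes that summed to between 148 and 206 TPM in WT and between 234 and 262 TPM in cKO, with *Pou4f2* and *Pou4f3* listed at 0 in some library. Without *Thy1*, the sorting marker, and *Isl1*, which bipolar cells also express, a choice made after seeing the data, the other 11 summed to between 24.5 and 56.1 TPM in WT and between 48.2 and 51.4 TPM in cKO, so that the groups overlapped. *Rbpms*, *Pou4f1* and *Sncg* had negative log2 differences, and the other 7 RGC markers tested had positive ones. Rod markers (8 genes) summed to between 12300 and 17163 TPM in WT and between 25059 and 47812 TPM in cKO. T cell markers (11 genes, none at 0) summed to 1976, 691 and 1602 TPM in WT and to between 173 and 429 TPM in cKO, and all 11 had a negative log2 difference. B cell markers (5 genes) had 106, 29.6 and 95.6 TPM in WT. *Cish* thus had its lowest WT level in the library with the lowest WT sums of both lists, whereas *Socs1* had its highest level there. The WT sums of myeloid, rod and erythrocyte markers were also lowest in replicate 2, so this match was not particular to T and B cells. Myeloid markers (12 genes, none at 0) summed to 2665, 2303 and 3535 TPM in WT and to between 973 and 1330 TPM in cKO. Mueller glia and astrocyte markers (10 genes) summed to 11678, 18633 and 21284 TPM in WT and to 7546, 8405 and 18224 TPM in cKO, with replicate 3 highest in each group, where *Socs3* was also highest. Among the WT libraries, *Glul*, *Aqp4* and *Sox9* of this list were highest in replicate 2 and its other genes in replicate 3. The sums of rod, cone, and endothelial and pericyte markers were also highest in replicate 3 of each group, so this match was not particular to glia. The part of these cell types in the SOCS differences was not tested, and in bulk libraries fewer cells of a type and less RNA per cell cannot be told apart. *Arid1a* itself was not lower in the libraries labelled cKO, at 18.8, 27.9 and 25.0 TPM against 18.8, 11.7 and 14.1 TPM in WT (adjusted p = 0.274 from limma). These values are for the whole gene and do not show whether its floxed part was read, so each direction rests on the labels.

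**Figure D2:**
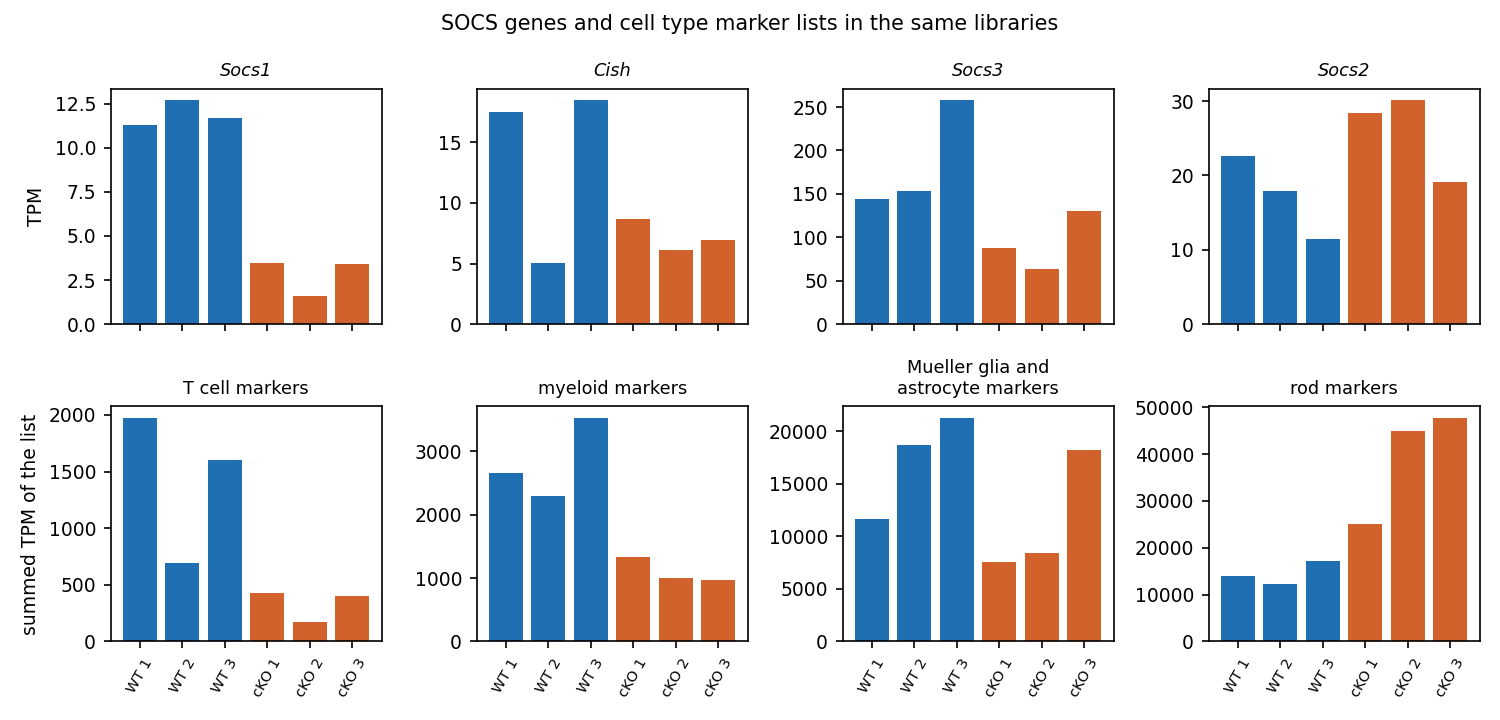
Levels of 4 SOCS genes (upper row, TPM) and summed levels of 4 cell type marker lists (lower row, summed TPM) in the same 6 RNA-seq libraries, 3 WT and 3 cKO, with bars from 0. *Cish* and the T cell, myeloid and rod sums are all lowest among WT libraries in replicate 2. The *Socs3*, Mueller glia and rod levels are highest in replicate 3 of each group.

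To see where the SOCS genes stood within their pathway, 60 other genes of JAK-STAT signaling were followed in the same fit, and 55 passed the filter on low values. At an adjusted p under 0.05 limma called 0 of the 55, and with an unadjusted p under 0.05 there were 19 lower genes and 2 higher ones (over all genes tested, 6.45% and 11.9%). The median log2 difference was -0.37. Without WT replicate 1 or WT replicate 3 the lower genes numbered 12, and without cKO replicate 2 they numbered 11. After scaling by the median of ratios 22 were lower and 0 higher, where 9.54% and 7.57% of all genes were. *Il7r*, *Il2rb*, *Il10rb*, *Ifnar2*, *Jak3*, *Stat4*, *Osm*, *Il6ra*, *Lifr*, *Cul5* and 4 inhibitors below are among those past the unadjusted threshold, and the other genes named were chosen for their place in the pathway after their values were seen.

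On the receptor side, 17 cytokine and growth factor receptors were tested outside the gp130 group. Of these, 10 were lower at an unadjusted p under 0.05 (6.45% of all genes tested) and 0 higher (11.9%). Beside them, all 11 T cell markers (median log2 difference -2.08) and 11 of 12 myeloid markers (median -0.96) had negative differences, and their part in the receptor, JAK, STAT and inhibitor differences was not tested. *Il7r*, the interleukin-7 receptor, had 61.5, 25.5 and 38.0 TPM in WT and 11.5, 5.59 and 11.3 TPM in cKO, a log2 difference of -2.0 (standard error 0.41, adjusted p = 0.124 from limma). *Il2rb*, a chain of the interleukin-2 receptor, had a log2 difference of -1.90 (standard error 0.51), and its lowest WT value, 31.2 TPM, was in replicate 2. *Il10rb* and *Ifnar2*, chains of receptors for interleukin-10 and type I interferon, had log2 differences of -0.87 and -0.73. *Ghr*, the growth hormone receptor restrained by SOCS2, had 15.8, 18.8 and 18.9 TPM in WT and 20.9, 28.8 and 37.4 TPM in cKO, with no overlap (log2 difference 0.64, standard error 0.28, adjusted p = 0.277 from limma). Every cKO library lay above every WT library in 18.7% of all genes tested.

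The gp130 cytokines and receptors, the arm that SOCS3 restrains, held 1 ligand and 1 receptor chain lower at the unadjusted threshold, and 1 receptor chain higher. Over all genes tested, 6.45% were lower and 11.9% higher at that threshold. All 5 ligands tested had negative log2 differences, from -1.16 for *Osm* to -0.49 for *Clcf1*, where 61.1% of all genes tested had positive ones. *Cntf* had 11.6, 21.6 and 22.6 TPM in WT and 7.85, 8.92 and 14.3 TPM in cKO, so that its groups overlapped. *Il6* and *Il11* did not pass the filter. Of the 6 receptor chains, *Il6ra* was lower at the unadjusted threshold (log2 difference -1.07, standard error 0.34) and *Lifr*, the LIF receptor, higher (0.71, standard error 0.29). *Il6st*, which encodes gp130, had 37.1, 88.0 and 82.2 TPM in WT and 37.3, 43.6 and 88.3 TPM in cKO, a log2 difference of -0.30 (standard error 0.45). *Cntfr* stood at 270 TPM in WT replicate 2 and between 18.0 and 48.4 TPM in the other 5 libraries.

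Downstream of the receptors, all 4 JAK kinases and all 7 STATs had negative log2 differences, most of them within the spread between libraries. Of all genes tested, 61.1% had positive ones. *Jak3*, the kinase of the interleukin-2 receptor family, had 36.9, 23.9 and 51.9 TPM in WT and 14.9, 7.54 and 18.0 TPM in cKO (log2 difference -1.43, standard error 0.41, adjusted p = 0.155 from limma). *Stat4*, a STAT of interleukin-12 signaling, had a log2 difference of -1.48 (standard error 0.53), with no overlap of the groups. Every cKO library lay below every WT library in 7.18% of all genes tested. *Stat3*, the STAT downstream of gp130, had 109, 153 and 174 TPM in WT and 83.0, 90.9 and 154 TPM in cKO, a log2 difference of -0.44 (standard error 0.31, adjusted p = 0.488 from limma). The groups of *Stat3* overlapped in cKO replicate 3. *Stat5b* stood at -0.00178 on the log2 scale.

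The partners of the SOCS box showed no such direction. *Cul5*, the scaffold of the ubiquitin ligase, was higher at the unadjusted threshold, at 36.1, 39.0 and 34.1 TPM in WT and 54.4, 66.0 and 49.1 TPM in cKO (log2 difference 0.61, standard error 0.21, adjusted p = 0.203 from limma). Its groups did not overlap, with every cKO library above every WT library, as in 18.7% of all genes tested. *Elob*, *Eloc* and *Rnf7* had log2 differences of 0.36, 0.21 and -0.06. Among 12 other inhibitors of the pathway, 4 were lower at the unadjusted threshold (6.45% of all genes tested): *Usp18*, *Ptpn6*, *Ptprc* and *Ptpn1*. *Usp18*, an interferon-induced brake on the type I interferon receptor, had 54.4, 55.2 and 44.4 TPM in WT and 21.4, 11.3 and 23.6 TPM in cKO (log2 difference -1.46, standard error 0.31, adjusted p = 0.124 from limma). The 4 PIAS genes, which restrain STATs in the nucleus, had log2 differences between 0.16 and 0.43 and none passed the unadjusted threshold. The groups of all 4 overlapped.

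**Figure D3:**
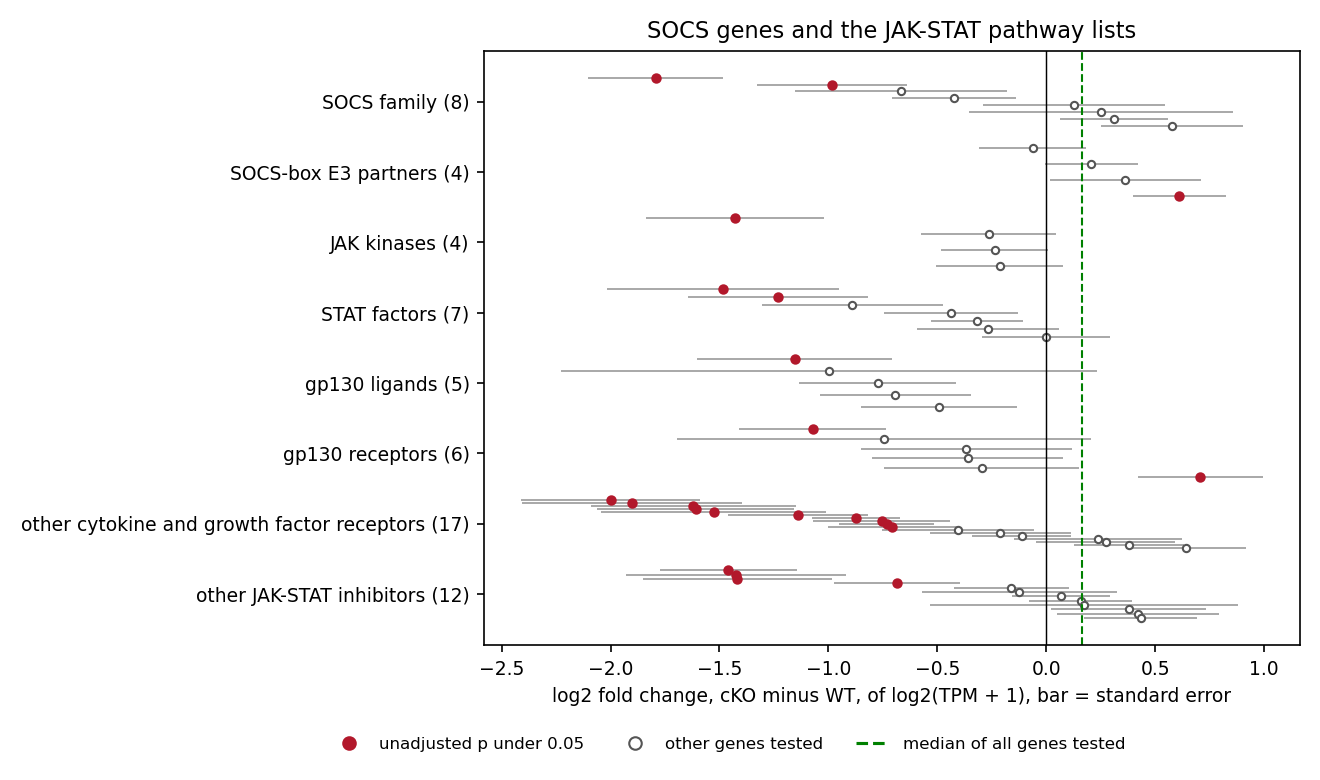
Difference between cKO and WT in log2(TPM + 1) for the 8 SOCS genes and 55 other JAK-STAT genes, grouped by role, with the standard error as a bar and filled points at an unadjusted p under 0.05. The dashed line is the median of all genes tested, 0.16, and the SOCS genes spread from -1.79 for *Socs1* to 0.58 for *Socs2*.

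ATAC-seq measures how open chromatin is to a transposase. At the SOCS genes it was compared through the authors' value for each group, the log2 of mean normalized reads, which has no spread between replicates. Regions lay within 1000 bp of an end of 6 SOCS genes, 1 each, and *Socs7* and *Cish* had none, where 37.2% of 21887 protein-coding genes had one. At *Socs1* the region, on chromosome 16 from 10784740 to 10786572, had 6.75 in WT and 3.43 in cKO on the log2 scale, or 108 against 10.8 normalized reads. At *Socs3* the region, on chromosome 11 from 117968596 to 117970137, had 6.16 in WT and 3.20 in cKO, or 71.5 against 9.19 normalized reads. Both regions cover the gene's listed start and the sequences shown above. For *Socs3* the RefSeq gene on the minus strand extends past the listed start, 117969366, to 117970336. The region stopped 199 bp short of that end, and no motif was searched there. The *Socs1* region had more reads in WT than 95.4% of the 7171 regions at ends of protein-coding genes, and the *Socs3* region more than 86.2%.

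Lower values in cKO were shared by most of the family and most of the regions compared. The *Socs2* region, on chromosome 10 from 95416517 to 95417287, had a log2 difference (cKO minus WT) of -3.65, that of *Socs1* -3.32, of *Socs3* -2.96, of *Socs5* -2.90 and of *Socs4* -2.15. The *Socs6* region differed by -0.33, but it had few reads in either group, 6.63 in WT and 5.28 in cKO. Only 2.40% of the regions at gene ends had fewer reads in WT. The *Socs6* region stopped 435 bp short of the gene end. A separate peak of WT replicate 1, from 88894317 to 88894586 on chromosome 18, covered that end and lay outside the regions compared. A difference of -2 or lower, 4-fold, was reached by 5 of the 6 regions, where 40.8% of all regions and 70.7% of the regions at gene ends reached it. The median over the 6 was -2.93, over the regions at gene ends it was -2.56 and over all 16600 regions -1.57. At -1 or lower there were the same 5 regions, where 59.8% of all regions were, and at -3 or lower 2 regions, where 18.0% were. Among regions at gene ends, 14.7% had a lower difference than *Socs2*, 23.6% lower than *Socs1* and 34.5% lower than *Socs3*. Centred on the median of all regions, *Socs3* stood at -1.39 and 1 of the 6 regions reached -2. It was that of *Socs2*, at -2.08, and 7.89% of all regions had a lower value. No test was made, since the values are per group.

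The size of the ATAC-seq difference did not sort the genes by their RNA. *Socs2* had the lowest ATAC-seq difference, and its RNA stood higher on average in cKO. *Socs5*, at -2.90 beside -2.96 for *Socs3* in ATAC-seq, had an RNA difference of 0.25 where *Socs3* had -0.98. Over 6 genes these values are given side by side as a description.

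**Figure D4:**
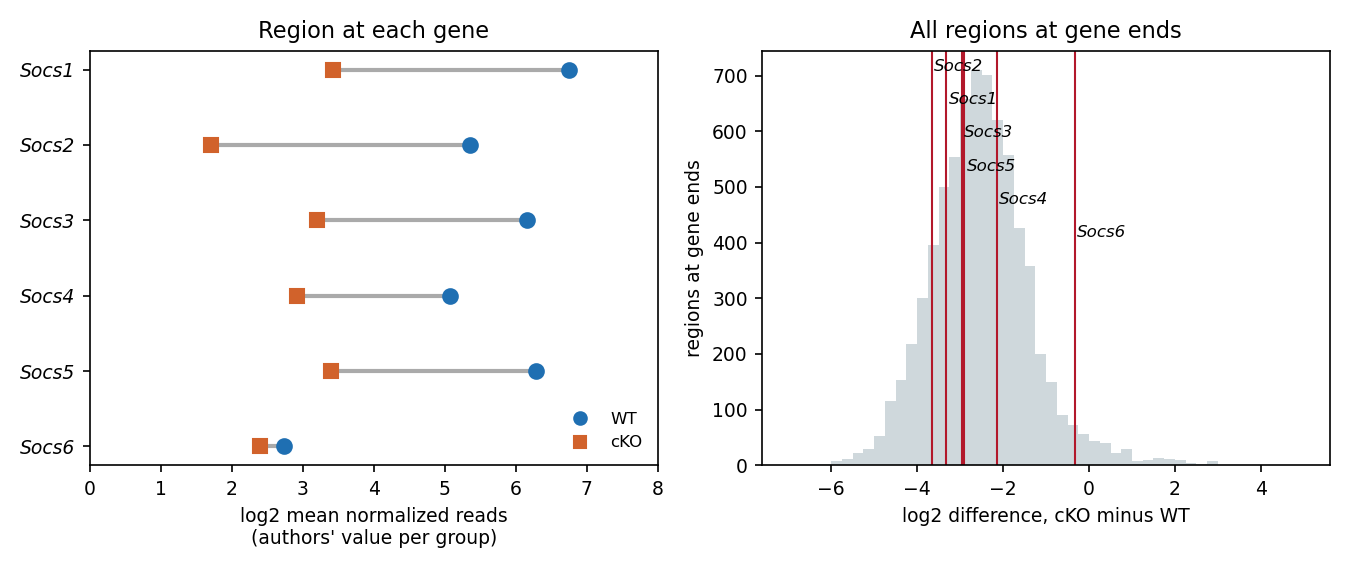
Left, the authors' log2 mean normalized reads for WT (circles) and cKO (squares) at the region within 1000 bp of an end of each of 6 SOCS genes; right, the log2 difference for all 7171 regions at ends of protein-coding genes, with the 6 SOCS regions as lines. The *Socs1*, *Socs2*, *Socs3*, *Socs4* and *Socs5* lines fall inside the bulk of the distribution, whose median is -2.56, and *Socs6* lies near its upper end at -0.33.

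The peak lists of each library show the same regions one library at a time. A peak lay within 1000 bp of a gene end for 6 of the 8 SOCS genes in WT replicate 1 and 7 in WT replicate 2, where 49.4% and 42.9% of protein-coding genes had one. In cKO replicate 1 there was a peak at 0 of the 8 and in cKO replicate 2 at 4 of the 8, where 12.4% and 12.8% of protein-coding genes had one. Over the whole genome, the lists held 76522 and 42265 peaks in WT replicates 1 and 2. They held 55902 and 68317 in cKO replicates 1 and 2, so the lower shares at gene ends did not come with fewer peaks in both cKO libraries. *Socs1*, *Socs2*, *Socs3*, *Socs4* and *Socs5* had a peak in both WT libraries. At *Socs3*, peaks of 1415 and 1421 bp in the WT libraries covered the STAT element and both GC boxes, and neither cKO library had a peak within 1000 bp of an end. At *Socs1*, the WT peaks covered both interferon elements, and neither cKO library had a peak there either. Of the 6 SOCS regions, 4 (*Socs1*, *Socs2*, *Socs3* and *Socs5*) held a peak of both WT libraries and of neither cKO library, where 84.4% of the regions at gene ends did.

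Of the 4 peaks of cKO replicate 2, those at *Socs4* and *Socs6* overlapped the peak of 1 WT library. At *Socs4* the peak ran from 47276447 to 47276785 on chromosome 14, across the start of the WT replicate 2 peak at 47276634 and short of the WT replicate 1 peak at 47276798. At *Socs5* it ended before both WT peaks began. At *Cish* it lay at the far end of the gene, from 107302752 to 107303047 on chromosome 9. The start of *Cish* had a peak in WT replicate 2 alone, from 107295893 to 107297023, which covered both STAT elements. *Socs7* likewise had a peak in WT replicate 2 alone, of 440 bp.

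**Figure D5:**
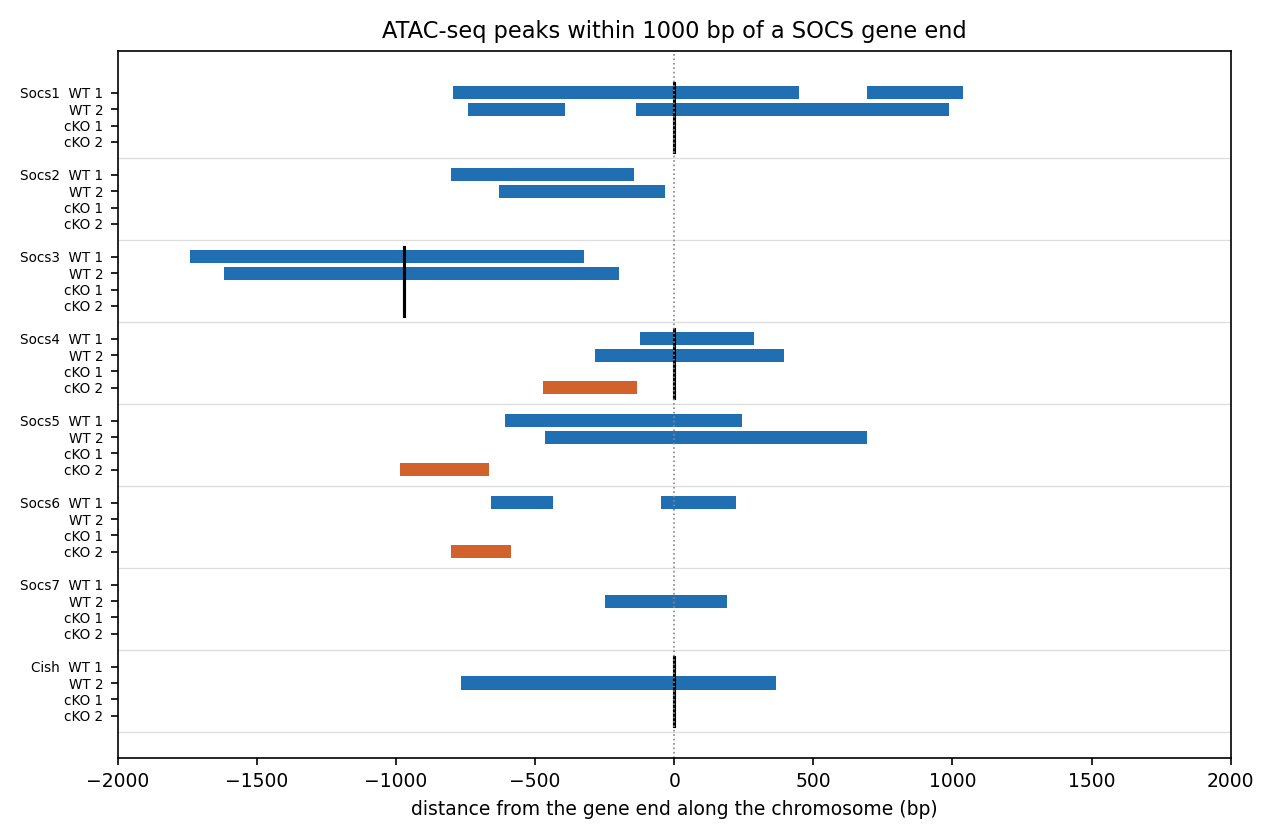
ATAC-seq peaks of each library within 1000 bp of an end of a SOCS gene, drawn by distance in bp along the chromosome from the gene end where the WT peaks lie (dotted line); black bars mark RefSeq starts where these were listed. WT peaks cover the starts of *Socs1*, *Socs3* and *Socs4* in both libraries, cKO replicate 1 has no peak, and the *Cish* peak of cKO replicate 2, at the gene's other end, is outside the map.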

How the data were processed

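The authors quantified RNA-seq reads with Salmon 1.0.0 and tximport on GENCODE and deposited TPM values, which keep no depth, so no counting error can be given. They aligned ATAC-seq reads to GRCm38 with Bowtie2 2.3.5.1, and the submitters' processing notes list MACS2 2.2.5. They deposited peak positions for each library and, from DiffBind, 1 log2 value of mean normalized reads for WT and 1 for cKO at each region. Their fold changes, p-values and FDRs were deposited as well and not used here.

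The 17555 genes that reached a TPM of 1 in 3 or more of the 6 libraries were tested. Values of log2(TPM + 1), a scale that understates changes of low genes, were compared with limma 3.58.1 (empirical Bayes with a trend) in R 4.3.3, with Benjamini-Hochberg adjustment over all genes tested and a threshold of 0.05. Other steps used Python 3.11.15, pandas 2.3.3 and scipy 1.17.1. Scripts were tested on simulated data. Gene positions and promoter sequences came from RefSeq on GRCm38.p6, whose gene table gives no strand, so both ends of a gene were used; promoters were found for 4 of the 8 genes. Printed positions are counted from 1.

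The members and gene lists were chosen with earlier results of these data known. The rule for named genes took the 8 members, list genes at an unadjusted p under 0.05 or with the largest difference of their list, the 3 nearest patterns of each member, *Arid1a*, and marker lists by sums; other pathway genes are named outside it, and some list genes are not reported here. Same-numbered libraries deviated together (correlations over genes of 0.334, 0.101 and 0.425, from the data and not the labels; cKO replicate 2 was closer to WT replicate 1, at 0.193), so the replicate number was used as a block in an alternative. Labels do not say that replicates came from separate animals, so p-values measure the spread between these libraries.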

Additional observations from a re-analysis of the deposited data

How the results depend on the processing

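Of the 96 fold changes of SOCS genes under alternatives (pseudocount 0.1, no filter, a filter at a mean TPM of 5, no trend, the replicate block, median-of-ratios scaling, each library left out), 92 kept their direction and none passed an adjusted p under 0.05. *Socs4* reversed to -0.0196 after scaling and ran from -0.17 to 0.42 with each library left out, and *Socs5* ran from -0.24 to 0.85. *Socs1* ran from -2.11 to -1.54 (adjusted p from limma 0.0762 to 0.469) and *Socs3* from -1.25 to -0.72 (0.0935 to 0.570). With each library left out, 1 to 3 SOCS genes were lower at an unadjusted p under 0.05: 1 without WT replicate 3, cKO replicate 1 or cKO replicate 2. The JAK-STAT genes lower at that threshold numbered 11 to 18 with each library left out and the higher ones 0 to 2, and 0 were higher after scaling. Over all genes, 4 were higher at the adjusted threshold without the trend, 1 was lower with the replicate block, and 0 to 1 were lower with each library left out. The block changed no adjusted call of a SOCS gene. The cause of these shifts was not tested.

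At a fold of 8 there were 2 SOCS regions, where 18.0% of all regions were and the lower quartile of the regions at gene ends was -3.27. Centred on the median of all regions, 1 SOCS region reached -2, that of *Socs2* at -2.08, and 7.89% of all regions had a lower value. At known transcription starts alone, which 4 genes have, 3 regions reached a difference of -2 or lower. For starts alone no share was computed, and 70.7% of the regions at gene ends reached it. Of the 4 SOCS genes with a known start, 3 and 4 had a peak there in WT replicates 1 and 2 and 1 in cKO replicate 2 (48.5%, 43.2% and 7.24% of all genes with one). Within 3000 bp cKO replicate 1 had a peak at 2 of 8, near the 27.6% of all genes, and in cKO replicate 2 a peak overlapped an end of 1 of 8 (1.65% of all genes). For ATAC-seq regions, which have group values alone, no block could be fitted. Depth is unknown, so no difference can be set against counting error.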
